A study of Homo sapiens with 18 samples.

Results

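The comparison described here is that of APOA4-KO with HepG2 after 24 h of hypoxia, which rests on 6 of the 18 poly(A) RNA-seq libraries of the study, 3 of each line. HepG2 is a human hepatoma cell line that keeps many functions of hepatocytes, and APOA4-KO is a HepG2 line edited at APOA4 with CRISPR-Cas9. Both lines had been held at 1% oxygen for 24 h in the same medium, so hypoxia is shared by all 6 libraries and the comparison is of the lines within it. The other 12 libraries, of both lines at 0 h before hypoxia and at 48 h, entered the same model and are used only for the line difference at those times. The edited cells were grown from single colonies and are compared with the unedited parental line as 1 line, so effects of the edit and of any other difference that arose between these cells and their parent cannot be told apart. The labels do not say whether the 3 libraries of a group came from separate cultures, so that p-values measure the spread between these libraries, which may be technical.

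Apolipoprotein A-IV, the product of APOA4, is a secreted lipid-binding protein carried on chylomicrons and high-density lipoproteins, and in liver its gene is known to respond to lipid load. Hypoxia stabilizes the alpha subunits of the hypoxia-inducible factors (HIF), which bind short DNA elements and switch on genes for glucose uptake, glycolysis, glycogen storage, blood vessel growth and the removal of mitochondria. Hepatocytes also use nuclear receptors of the PPAR family, which bind fatty acids and act with the retinoid X receptors, to set the level of fatty acid uptake, oxidation and lipid droplet genes.

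The guides that defined the line are shown to place the edit. Each is written 5′ to 3′ in lower case with its PAM, the bases that Cas9 requires beside the target, in capitals.
sgRNA1: agtggtggctgttccgtgcgTGG
sgRNA2: ttggggaccgagacgagtctGGG
The first guide, with its PAM, matched the strand opposite to APOA4 at chr11:116823497-116823519 (GRCh38), 193 to 215 bases before the start of the gene, and it matched no other of the 35116 RefSeq promoter windows. The window from 250 bases before to 50 bases after the start of APOA4 is chr11:116823255-116823554 on the minus strand (RefSeq, GRCh38.p14), and the matched bases are in capitals.
APOA4 window: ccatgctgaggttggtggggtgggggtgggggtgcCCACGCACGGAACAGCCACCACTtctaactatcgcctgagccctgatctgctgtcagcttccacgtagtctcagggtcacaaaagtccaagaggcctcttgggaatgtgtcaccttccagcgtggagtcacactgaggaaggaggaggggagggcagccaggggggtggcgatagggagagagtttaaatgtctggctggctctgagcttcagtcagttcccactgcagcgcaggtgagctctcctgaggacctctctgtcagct
The second guide was in none of the windows, and sequence outside them was not searched.

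APOA4 (ENSG00000110244, chr11:116820700-116823306, minus strand) still gave counts in the edited line. Its level in CPM, the count scaled to a library of fixed size, was 19.8, 19.8 and 21.0 in the 3 HepG2 libraries and 8.25, 7.51 and 8.04 in the APOA4-KO libraries. The lines did not overlap, as in 9945 of the 19743 tested genes. The log2 fold change in APOA4-KO relative to HepG2 was −1.35 (standard error 0.08, edgeR adjusted p = 6.58e-11). At 0 h it was −0.23, and the difference between the times was −1.12 (adjusted p = 3.39e-07). With offsets for GC content and transcript length, described at the end, the 24 h value was −0.77 (adjusted p = 2.05e-07). A count over the whole gene does not show which exons the remaining reads came from, and 43.1% of the exon bases of APOA4 are shared with an antisense gene. Of the 7 tested genes within 200 kb that had a mean of 100 counts or more, APOA4 included, the apolipoprotein genes APOA5 and APOC3 were higher in APOA4-KO by log2 fold changes of 0.62 (adjusted p = 1.03e-09) and 0.54 (adjusted p = 8.79e-08), and APOA1 was lower, with −0.36 (adjusted p = 6.64e-09). ZPR1 was at −0.39 (adjusted p = 6.88e-08), SIK3 at 0.18 (adjusted p = 0.0020) and BUD13 at −0.19 (adjusted p = 0.122). In the main model APOA4 had the only change past both limits given below among these 7 genes. With the GC and length offsets this was turned: APOA5 and APOC3, at 1.149 (adjusted p = 2.45e-13) and 1.17 (adjusted p = 5.73e-15), were past both limits and APOA4 was not, and APOA1 was higher, with 0.26 (adjusted p = 1.38e-09).

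The total count lay between 76481820 and 91476613 in the 6 libraries, and counts of 4 were 2.67 to 3.02 times as frequent as the mean of their neighbours 3 and 5, so 1 count may not equal 1 sequenced fragment. Markers of the line were present throughout: albumin (ALB) was 15361 to 15584 CPM in HepG2 and 18327 to 19612 CPM in APOA4-KO. APOA4-KO replicate 1 stood apart from its replicates. With at least 100 counts, 174 genes were at least 1 log2 unit higher in it than in both other APOA4-KO libraries, against 25 to 44 genes in each of the other 5 libraries. Connective tissue genes were among them: vimentin (VIM), an intermediate filament protein, had 2242 counts in replicate 1 and 639 and 721 in the others, and collagen COL4A2 had 1464 against 209 and 331. Over 12 such genes, chosen after their values were seen, the summed level was 172 CPM of the unscaled total in replicate 1, 33.2 and 39.5 in replicates 2 and 3, and 30.6 to 35.2 in HepG2. The 3 APOA4-KO libraries at 0 h, which enter each comparison of 24 h with 0 h, had 146.5 to 152.9 CPM.

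Bile duct markers were abundant in both lines, as 4 of the 5 tested had 7677 or more counts in every library. KRT19 had 29954 to 41442 counts, SOX9 20784 to 29557 and EPCAM 7677 to 9158 over the 6 libraries. SPP1, the secreted phosphoprotein osteopontin, had 66633 to 78238 counts in HepG2 and 34229 to 36208 in APOA4-KO (log2 fold change −0.99, adjusted p = 5.22e-16), just under the fold limit. The summed level of this list was 1637 to 1676 CPM of the unscaled total in HepG2 and 1310 to 1322 in APOA4-KO, and with the GC and length offsets SPP1 (−1.15) and KRT7 (1.39) were past both limits. KRT7 rested on APOA4-KO replicate 1, with 373, 485 and 435 counts in HepG2 and 1503, 328 and 404 in APOA4-KO. In the main model without that library it was at −0.16 (adjusted p = 0.725). At 0 h KRT7 had 1075, 1605 and 1620 counts in APOA4-KO and 622, 595 and 559 in HepG2, so replicate 1 was near the APOA4-KO level at 0 h. Of 6 tested fibroblast markers, 3 were past both limits (50.0%, against 7.77% of all tested genes), and these had few counts. COL1A1 had 113, 99 and 141 counts in HepG2 and 449, 151 and 176 in APOA4-KO. LUM had 0, 0 and 4 against 87, 15 and 19, and THY1 had 0, 0 and 0 against 43, 0 and 22. Without APOA4-KO replicate 1 COL1A1 was at 0.54 (adjusted p = 0.108), and 2 of the 6 were past both limits. The summed level of the 7 genes of the list, most of it from PDGFRB, was 47.6 to 52.55 CPM in HepG2 and 45.8 to 52.0 in APOA4-KO. In the main model none of the tested macrophage, endothelial or bile duct markers was past both limits. Of the macrophage list, CD68 had 3591 to 3988 counts, and lysozyme (LYZ) had 154117 to 178997 counts in HepG2 and 189447 to 192508 in APOA4-KO. The receptor CSF1R of macrophages had at most 13 counts in any of the 6 libraries. KDR and TEK of endothelium had at most 12 outside APOA4-KO replicate 1, where they had 41 and 58. At 0 h these 2 genes had 38 to 60 counts in APOA4-KO and at most 13 in HepG2. Some other members of the 2 lists had more counts. PTPRC had 387, 675 and 265 counts in HepG2 at 24 h and 0, 527 and 633 in APOA4-KO. Over the 6 libraries CD14 had 347 to 508 counts, PECAM1 418 to 626 and VWF 324 to 689. Hemoglobin and neutrophil genes, also chosen after their values were seen, differed between libraries of 1 line: HBB had 2616, 519 and 11847 counts in HepG2 and 45, 3031 and 444 in APOA4-KO, and over 6 such genes the summed level was 29.15 to 227 CPM in HepG2 and 5.41 to 88.7 in APOA4-KO, lowest in replicate 1. None of the 6 was past the adjusted p limit. Some libraries of different lines were alike in these genes. The sums of HepG2 replicates 1 and 2 were 74.6 and 29.15 CPM, near the 88.7 and 36.8 of APOA4-KO replicates 2 and 3. S100A8 had 312 and 215 counts in the former and 353 and 203 in the latter. Whether these reads came from cells of the cultures was not tested. In bulk RNA, fewer cells of a type and less RNA per cell cannot be told apart. The part of these genes in the results was not tested. Of the 125 changed genes named here, 10 were not past both limits without replicate 1: ADH4, COL1A1, COL4A2, IFI44, IFI44L, IFIT3, INSIG1, VIM, ENSG00000217576 and ENSG00000255639.

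Of 19743 tested genes, 1535 (7.77%) were changed at 24 h, which means past both limits, an adjusted p under 0.05 (Benjamini-Hochberg) and a log2 fold change of 1 or more in size. They were 888 genes (4.5%) that were higher in APOA4-KO and 647 (3.28%) that were lower. With the adjusted p alone, 4652 genes (23.6%) were higher and 4848 (24.6%) lower, so most differences between the lines were smaller than the fold limit. The median log2 fold change of all tested genes was 0.01. Between the lines the libraries did not overlap in 9945 of the 19743 genes. Counts of changed genes in the lists below are to be read beside the shares of all tested genes given here. Without APOA4-KO replicate 1, 1254 of the 1535 changed genes were again past both limits, 733 of the higher and 521 of the lower ones.

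Many of the genes changed at 24 h also differed between the lines before hypoxia. Of the 888 higher genes, 245 (27.6%) were changed in the same direction at 0 h and 0 in the opposite direction, and 810 had a positive log2 fold change there. Of the 647 lower genes, 168 (26.0%) were changed in the same direction at 0 h and 2 in the opposite one, and 570 had a negative log2 fold change. The difference was larger at 24 h than at 0 h for much of the rest. The median log2 fold change of the higher genes was 1.44 at 24 h and 0.71 at 0 h, and that of the lower genes was −1.35 at 24 h and −0.62 at 0 h. By the test of the difference itself, which asks whether the line difference at 24 h differs from that at 0 h, 6364 of all tested genes (32.2%) were past an adjusted p of 0.05. Among the higher genes 434 were, 423 of them with the larger difference at 24 h, and among the lower genes 299 were, 292 of them with the larger difference at 24 h. These comparisons use the 24 h libraries by which the genes were chosen, so the counts describe the changed genes and are no independent support.

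**Figure D1:**
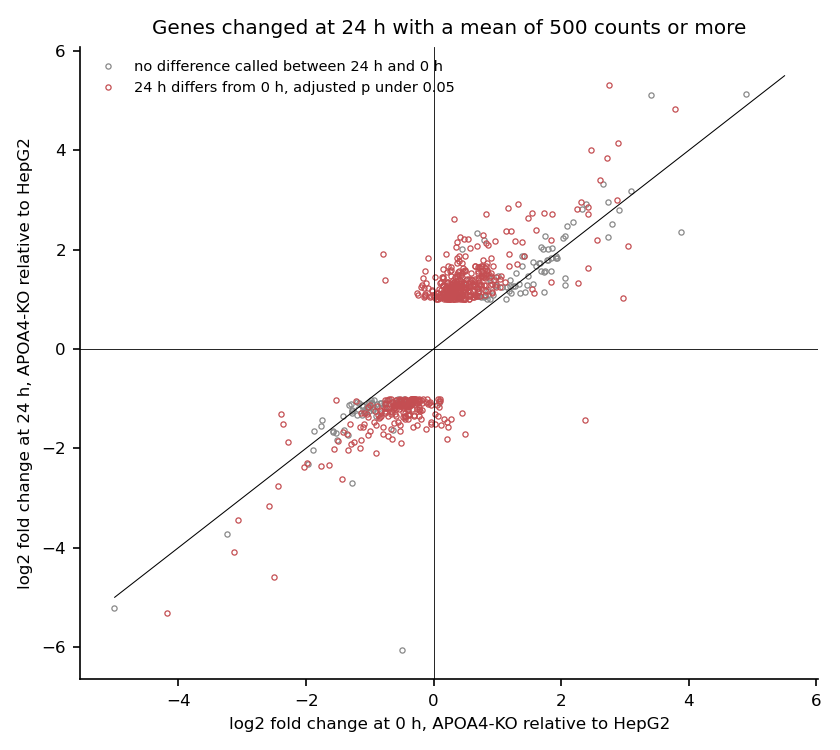
Log2 fold change of APOA4-KO relative to HepG2 at 0 h (x axis) and at 24 h (y axis) for the 709 genes changed at 24 h whose mean count in the higher line was 500 or more; the diagonal marks equal differences. Red points, 570 genes, had a line difference at 24 h that differed from that at 0 h (edgeR adjusted p under 0.05), 40 genes had opposite signs at the 2 times, and the empty band between −1 and 1 on the y axis is the fold limit.

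Where the mean count of the higher line was 500 or more and every library had 10 or more, the 12 largest increases held enzymes, transporters and secreted proteins of the liver beside genes best known from other tissues. The largest was in PCK1 (ENSG00000124253, chr20:57561080-57568112), the cytosolic phosphoenolpyruvate carboxykinase that commits carbon to gluconeogenesis. PCK1 was 1.78, 1.80 and 1.51 CPM in HepG2 and 66.0, 67.6 and 70.4 CPM in APOA4-KO, which is a log2 fold change of 5.32 with a standard error of 0.15 (adjusted p = 2.68e-15). At 0 h its log2 fold change was 2.75, and the difference between the times was 2.57 (adjusted p = 1.77e-08). Plasminogen (PLG), the circulating precursor of plasmin, was 0.57, 0.28 and 0.34 CPM in HepG2 and 14.2, 13.4 and 13.5 CPM in APOA4-KO. Its log2 fold change of 5.11, with a standard error of 0.50 (adjusted p = 6.62e-08), thus starts from a HepG2 level of 25 to 44 counts. Alpha-fetoprotein (AFP), the fetal counterpart of albumin and a marker of hepatoma, was 190, 189 and 181 CPM in HepG2 and 1449.7, 1539 and 1492 CPM in APOA4-KO. The change in AFP, at 3.00 on the log2 scale with a standard error of 0.03 (adjusted p = 1.87e-21), was about as large at 0 h, with 2.88.

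Reelin (RELN), a large secreted glycoprotein best known for guiding neurons, had 5590, 6672 and 6152 counts in HepG2 and 110039, 101194 and 106168 in APOA4-KO, for a log2 fold change of 4.14 with a standard error of 0.04 (adjusted p = 6.18e-22). DPP4, the peptidase that degrades incretin hormones, went from 6.44, 7.03 and 6.79 CPM in HepG2 to 72.4, 74.3 and 68.0 CPM in APOA4-KO. ABCB4, the phosphatidylcholine floppase of the bile canaliculus, went from 2.77, 3.601 and 3.15 CPM to 24.0, 24.8 and 25.1 CPM. In all 3 the groups were separated by far more than the spread within them, with log2 fold changes for DPP4 and ABCB4 of 3.40 (adjusted p = 3.24e-17) and 2.96 (adjusted p = 1.2e-13). The amino acid transporter SLC6A14 was higher by a log2 fold change of 3.997, PPP1R3G, a subunit that targets a phosphatase to glycogen, by 3.33, and the adhesion receptor ADGRG3 by 5.13. The phospholipid flippase gene ATP10A was higher by 4.83, the sodium channel gene SCN1A by 3.85 and the actin-binding ABLIM3 by 2.97. The adjusted p of these 6 lay between 1.51e-14 and 4.69e-08. The 12 genes had the same sign at 0 h, with log2 fold changes of 2.31 to 4.89, and without APOA4-KO replicate 1 their 24 h values were 2.95 to 5.36.

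The 12 largest decreases included proteins of the extracellular matrix, of detoxification and of the cytoskeleton. LAMC3 (ENSG00000050555, chr9:131009082-131094473), a gamma chain of laminin, was 44.2, 40.6 and 41.8 CPM in HepG2 and 0.89, 1.26 and 1.02 CPM in APOA4-KO, for a log2 fold change of −5.32 with a standard error of 0.09 (adjusted p = 2.22e-18). UGT1A1, the enzyme that conjugates bilirubin with glucuronic acid, went from 83.0, 89.9 and 87.7 CPM to 1.48, 2.03 and 3.504 CPM, with −5.22 (standard error 0.18, adjusted p = 3.43e-14). Other genes cover 49.9% of its exon bases, and since the members of the UGT1A cluster share their last exons, the counting could have split its reads. UGT1A6 and UGT1A9 of the same cluster had at most 1.75 and 1.09 CPM in any of the 6 libraries and were not past the adjusted p limit (0.200 and 0.319). Others of the cluster were past both limits on few counts, in opposite directions: UGT1A4 had 25, 55 and 30 counts in HepG2 and 0 in each APOA4-KO library (adjusted p = 2.49e-06), and UGT1A3 had 0 in each HepG2 library and 4, 5 and 13 in APOA4-KO (adjusted p = 0.0188). ALPL, the tissue-nonspecific alkaline phosphatase, was 24.2, 25.8 and 27.4 CPM in HepG2 and 0.78, 1.40 and 2.38 CPM in APOA4-KO, and MDFI, an inhibitor of myogenic transcription factors, was 11.04, 10.9 and 11.6 against 0.44, 0.40 and 0.56 CPM. In these genes the lowest HepG2 library was above the highest APOA4-KO library by several-fold, and the log2 fold changes of ALPL and MDFI were −4.09 (adjusted p = 6.58e-11) and −4.58 (adjusted p = 1.56e-13).

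The transcription factor WT1 was lower by a log2 fold change of −3.72, with 12 to 69 counts in APOA4-KO, and ATOH8, a bHLH factor that acts in the BMP-hepcidin pathway, was lower by −2.62. Cartilage oligomeric matrix protein (COMP) was at −3.44, the monocarboxylate transporter family gene SLC16A9 at −3.17, and the secreted phospholipase PLA2G2A at −2.77. MYL9, a regulatory light chain of smooth muscle and non-muscle myosin, was at −2.37, and the galactosidase-like GLB1L2 at −2.35. The adjusted p of these 7 lay between 1.04e-18 and 1.52e-07. The read-through gene ABHD14A-ACY1 (−2.70, adjusted p = 0.000339) is 93.8% covered by the exons of other genes and is uncertain. At 0 h, the log2 fold changes of the 12 genes were −1.29 to −5.01, and without APOA4-KO replicate 1 the 24 h values were −2.32 to −5.20.

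**Figure D2:**
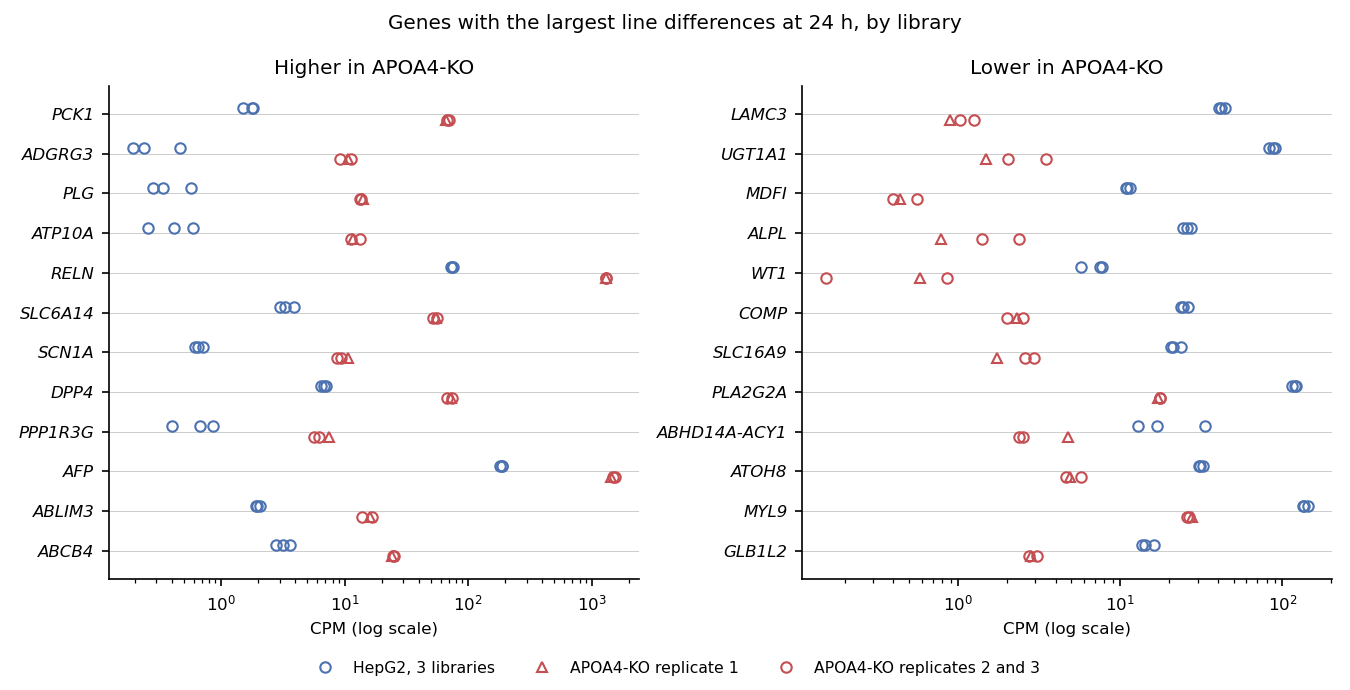
Level of each of the 24 genes in every 24 h library (x axis, CPM on a log scale), with HepG2 in blue and APOA4-KO in red, and APOA4-KO replicate 1 as a triangle. The groups of each gene do not overlap, which the rule for naming them required, and replicate 1 lies with or close to its replicates in these genes, for example at 66.0 CPM of PCK1 beside 67.6 and 70.4.

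Of the tested genes, 230 had at most 3 counts in each HepG2 library and 185 in each APOA4-KO library. Of these, 79 and 47 were changed, and of all tested genes 7.77% were. Genes this low in 1 line passed the filter on low counts through other groups of libraries, so these counts are no support for a line difference. In 4 genes of each class the mean of the other line was 100 counts or more, and these 8 are given here. CHI3L1, a chitinase-like secreted glycoprotein, had 171, 93 and 84 counts in HepG2 and 0 in each APOA4-KO library, so it was at least 37.9-fold lower against a floor of 3 counts per library (adjusted p = 3.73e-07). The unnamed gene ENSG00000236366 had 131, 159 and 186 counts against 0, 0 and 0 (at least 50.9-fold lower), and the pseudogene CLCN3P1 had 0, 0 and 0 counts in HepG2 and 304, 392 and 345 in APOA4-KO (at least 122-fold higher). Of the 5 others, ENSG00000255639 and ENSG00000217576 were past both limits and ISY1-RAB43, ENSG00000257921 and ENSG00000285330 were not, and each of the 5 owed its counts to 1 or 2 libraries of a line and lies mostly or wholly within the exons of other genes (73.7% or more).

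Targets of HIF were higher in APOA4-KO than in HepG2 under the same 24 h of hypoxia. Of 25 such genes, all tested, 15 were changed, all of them higher, and 23 were higher by the adjusted p alone, against the 4.5% and 23.6% of all tested genes above. The median log2 fold change of the list was 1.05 (0.01 over all tested genes), and at 0 h it was 0.37. By the test of the difference itself, 18 of the 25 had a larger line difference in favour of APOA4-KO at 24 h than at 0 h, 4 the opposite, among them CA9 (difference −1.09, adjusted p = 5e-09), a cell surface carbonic anhydrase, and 3 were not past the limit. Over all 19743 tested genes, 3322 moved in favour of APOA4-KO by this test and 3042 the opposite way. Without APOA4-KO replicate 1, 15 of the 25 were changed and higher and the median was 1.11, and with the GC and length offsets these were 12 and 0.98.

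The largest differences were in regulators of glycolysis and a vascular peptide. PFKFB3, whose product makes the fructose 2,6-bisphosphate that activates phosphofructokinase, was 38.2, 39.3 and 37.2 CPM in HepG2 and 125, 124 and 129 CPM in APOA4-KO (log2 fold change 1.72, standard error 0.05, adjusted p = 1.31e-15). HK2, the hexokinase that traps glucose in the cell, was 168, 171 and 168 CPM against 526, 550 and 538 CPM (1.67, standard error 0.02, adjusted p = 1.38e-19). Adrenomedullin (ADM), a peptide that widens blood vessels, was 17.3, 14.5 and 15.1 CPM against 47.3, 51.2 and 50.7 CPM (1.67, standard error 0.07, adjusted p = 3.65e-13). None of these groups overlapped, which also held for 9945 of the 19743 tested genes. The mitophagy receptors BNIP3 and BNIP3L were higher by 1.48 and 1.40. The oxygen sensor EGLN1, a prolyl hydroxylase that marks HIF for degradation, was higher by 1.45, and PDK1, a kinase that inhibits pyruvate dehydrogenase, by 1.39. Other changed members included MXI1 (1.4998), PFKFB4 (1.46), KDM3A (1.31), NDRG1 (1.29), DDIT4 (1.05), ANKRD37 (1.04) and the angiogenic factor VEGFA (1.04). The adjusted p of the 11 genes given without one lay between 2.93e-18 and 3.01e-06.

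Not every HIF target followed. SLC2A1, the glucose transporter of most cells, was 882, 846 and 849 CPM in HepG2 and 870, 862 and 888 CPM in APOA4-KO, so the lines overlapped (log2 fold change 0.02, standard error 0.02, adjusted p = 0.406). ALDOA, the aldolase of glycolysis, was at −0.10 (adjusted p = 0.0822), with other genes over 53.5% of its exon bases. LDHA, which regenerates NAD from pyruvate, was 1361, 1392 and 1399.7 CPM against 1948, 2077 and 2054 CPM, a log2 fold change of 0.55 (adjusted p = 4.8e-14) that was the same at 0 h within its error (difference −0.01, adjusted p = 0.934). The members thus did not move by a common amount.

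The promoters of these genes are shown since HIF is known to act through a short core, ACGTG or GCGTG. Each of these windows, from 250 bases before to 50 after the start (RefSeq, GRCh38.p14), is written along the gene with every core on either strand in capitals; where cores overlap they form a longer run such as CACGTG.
HK2, chr2:74833877-74834176, plus strand: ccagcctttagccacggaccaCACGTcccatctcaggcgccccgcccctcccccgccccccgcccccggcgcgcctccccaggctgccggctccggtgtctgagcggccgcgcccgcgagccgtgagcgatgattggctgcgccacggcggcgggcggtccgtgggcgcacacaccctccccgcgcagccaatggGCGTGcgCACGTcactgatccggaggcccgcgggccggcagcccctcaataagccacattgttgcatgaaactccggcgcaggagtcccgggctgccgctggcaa
BNIP3, chr10:131981874-131982173, minus strand: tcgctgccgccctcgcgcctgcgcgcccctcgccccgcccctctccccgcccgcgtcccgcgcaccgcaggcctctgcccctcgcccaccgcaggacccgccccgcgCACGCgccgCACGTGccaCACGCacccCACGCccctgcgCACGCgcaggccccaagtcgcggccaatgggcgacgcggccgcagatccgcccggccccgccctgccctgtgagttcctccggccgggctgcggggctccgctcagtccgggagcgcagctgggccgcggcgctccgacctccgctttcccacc
LDHA, chr11:18394313-18394612, plus strand: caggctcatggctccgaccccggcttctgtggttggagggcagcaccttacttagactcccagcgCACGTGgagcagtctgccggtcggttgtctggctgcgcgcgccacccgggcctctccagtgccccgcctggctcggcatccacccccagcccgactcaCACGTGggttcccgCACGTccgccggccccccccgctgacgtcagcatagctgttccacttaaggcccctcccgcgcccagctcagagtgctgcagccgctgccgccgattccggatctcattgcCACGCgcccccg
PLIN2, chr9:19127443-19127742, minus strand: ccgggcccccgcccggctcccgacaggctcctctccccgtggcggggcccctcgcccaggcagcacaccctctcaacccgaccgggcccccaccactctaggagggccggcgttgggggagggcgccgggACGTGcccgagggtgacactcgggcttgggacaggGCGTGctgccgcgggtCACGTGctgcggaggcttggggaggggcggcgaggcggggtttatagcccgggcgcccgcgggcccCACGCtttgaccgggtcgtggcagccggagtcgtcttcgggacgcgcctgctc
HK2, BNIP3 and LDHA are members of the list, and PLIN2, a lipid droplet gene described below, is not. The windows hold 3, 6, 6 and 5 matches, and LDHA, with 6, was not past the fold limit. A window was at hand for 21 of the 25 HIF targets, and 17 of them (81.0%) held the core, against 48.4% of all 35116 windows. The share was 81.8% (9 of 11) of the changed members and 80.0% (8 of 10) of the others. A match is a description of letters and not a bound site.

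Genes of glycogen storage moved with the glycolytic regulators. In the list of glycolysis and glycogen, 27 genes were tested, 7 were changed and higher and 1 was changed and lower (29.6%, against 7.77% of all). The median log2 fold change was 0.52 (0.30 at 0 h, and 0.34 at 24 h without APOA4-KO replicate 1). GBE1, the glycogen branching enzyme, was 41.0, 40.9 and 44.1 CPM in HepG2 and 146, 154 and 146 CPM in APOA4-KO, higher by 1.82 on the log2 scale (standard error 0.04, adjusted p = 4.7e-17). GYS1, the glycogen synthase of most tissues, was 90.2, 86.0 and 88.2 CPM against 196, 187 and 192 CPM (1.12, adjusted p = 4.41e-15), and PPP1R3C, a glycogen-targeting phosphatase subunit, was higher by 1.57 (adjusted p = 1.05e-11). At 0 h GYS1 and PPP1R3C were at 0.06 and −0.13, and the difference between the times was 1.06 (adjusted p = 8.72e-12) and 1.71 (adjusted p = 2.83e-09). The hexokinase HK1 had the largest change of the list, from 2.91, 2.68 and 2.31 CPM to 21.6, 17.98 and 16.9 CPM (2.84, adjusted p = 2.76e-11). The classical glycolytic enzymes were closer together: GAPDH was at 0.00, TPI1 at −0.05, PKM at −0.13 and PFKL at −0.26, and with the GC and length offsets the 4 were at 0.10 to 0.50.

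Of 15 tested genes of gluconeogenesis and glucose release, 4 were changed and higher and 1 was changed and lower (33.3%, against 7.77% of all). The median was −0.06. Besides PCK1, the higher genes were PPARGC1A, the coactivator that induces this pathway in fasting (log2 fold change 1.28, adjusted p = 7.73e-12), the liver transcription factor CREB3L3 (1.04, adjusted p = 2.92e-08) and G6PC1, the catalytic subunit of glucose-6-phosphatase (1.03, adjusted p = 2.25e-11). G6PC1 was 78.1, 74.9 and 75.9 CPM in HepG2 and 157, 157 and 155 CPM in APOA4-KO, and its line difference was smaller than at 0 h (difference −1.93, adjusted p = 6.27e-12), unlike that of PCK1. The mitochondrial isoform PCK2 was lower, from 353, 347 and 350 CPM to 215, 216 and 225 CPM (−0.68, adjusted p = 1.08e-13), as were SLC37A4, the transporter that feeds glucose-6-phosphatase (−0.80), and G6PC3 (−0.66). GPD1, which links glycerol to the pathway, was the changed gene that was lower (−1.62, adjusted p = 2.38e-10). The pathway therefore did not move as a whole.

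Among 14 tested PPAR and RXR receptors and their coregulators, 3 were changed (21.4%, against 7.77% of all tested genes), all higher. The median was 0.70 (0.04 at 0 h). PPARA, the receptor that induces fatty acid oxidation, was 26.5, 25.7 and 27.0 CPM in HepG2 and 61.3, 63.9 and 62.1 CPM in APOA4-KO (log2 fold change 1.24, adjusted p = 3.35e-13), and its gap was larger at 24 h than at 0 h by 0.81 (adjusted p = 6.11e-08). The coactivator NCOA1 was higher by 1.04 (adjusted p = 3.98e-08), and NCOA3 by 0.95 (adjusted p = 7.35e-14), which is under the fold limit. PPARD and RXRB were lower, with −0.39 (adjusted p = 9.06e-05) and −0.33 (adjusted p = 0.000114). These genes have long transcripts (median 6862 bases), and with the GC and length offsets described below the list's median was 0.32, and 0 of its members were changed and higher and 1, the coactivator PPARGC1B, was changed and lower (−1.04).

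Lipid droplet genes were divided. Of 21 tested, 4 were changed and higher and 1 was changed and lower (23.8%, against 7.77% of all). The median was 0.01, or 0.46 with the GC and length offsets. PLIN2, the main droplet coat protein of hepatocytes, was 377, 372 and 378 CPM in HepG2 and 1075, 1073 and 1099.6 CPM in APOA4-KO (log2 fold change 1.53, standard error 0.02, adjusted p = 1.93e-19), and its line difference exceeded that at 0 h by 1.08 (adjusted p = 1.96e-14). ANGPTL4, a secreted inhibitor of lipoprotein lipase, was 19.4, 19.5 and 20.9 CPM against 59.7, 56.8 and 60.6 CPM (1.56, adjusted p = 3.62e-13), and HILPDA, an inhibitor of the triglyceride lipase ATGL, was 11.8, 11.1 and 14.3 CPM against 25.5, 27.6 and 26.2 CPM (log2 fold change 1.09, adjusted p = 5.24e-10). At 0 h HILPDA did not differ in this direction, and the difference between the times was 1.23 (adjusted p = 6.13e-08). LIPG, an endothelial-type phospholipase, was higher by 1.38. PNPLA2, which encodes ATGL, was at −0.30, the coat protein PLIN3 at −0.39 and FITM2, which acts in droplet budding, at −0.45, each past the adjusted p limit and none past the fold limit, and PNPLA2 and PLIN3 had the opposite sign with the offsets (0.26 and 0.08). The lower changed gene, BSCL2 (−1.51, adjusted p = 0.000965), overlaps other genes in 51.9% of its exon bases.

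The first steps of fatty acid use showed the same mixture. In the list of uptake and activation, 3 of 16 tested genes were changed and higher and 2 were changed and lower (31.2%, against 7.77% of all). With the GC and length offsets these counts were 2 and 1. ACSL3, the acyl-CoA synthetase of nascent lipid droplets, was 122, 120 and 124 CPM in HepG2 and 383, 392 and 379 CPM in APOA4-KO (log2 fold change 1.65, standard error 0.03, adjusted p = 2.22e-18), and ACSL4, which prefers arachidonic acid, and the fatty acid carrier FABP1 were higher by 1.14 and 1.12. ACSM3, a mitochondrial medium-chain synthetase, was lower, from 260, 266 and 268 CPM to 85.1, 95.3 and 85.6 CPM (−1.58, adjusted p = 7.96e-16), and the transporter SLC27A4 was lower by −1.10. In fatty acid oxidation, with 31 tested genes and a median of −0.01, 6.45% were changed, against 7.77% of all tested genes. Of these, 1 was higher, with few counts, and 1 was lower, UCP2, an uncoupling protein homologue (−1.51, adjusted p = 6.08e-14). CPT1A, the gate of mitochondrial oxidation, was higher by 0.29, and HSD17B4 and SCP2 of peroxisomal oxidation by 0.73 and 0.63, under the fold limit.

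In fatty acid and triglyceride synthesis, 2 of 25 tested genes were changed and higher and 1 was changed and lower, with a median of 0.01. FADS2, the delta-6 desaturase of polyunsaturated fatty acids, was 52.3, 49.3 and 46.0 CPM in HepG2 and 225, 214 and 232 CPM in APOA4-KO (log2 fold change 2.18, standard error 0.04, adjusted p = 2.96e-18), and the elongase ELOVL6 was higher by 1.21 (adjusted p = 7.38e-11). In both genes the line difference was smaller at 24 h than at 0 h, by 0.38 and 0.33 on the log2 scale. DGAT1, which catalyses the last step of triglyceride synthesis, was 82.5, 83.4 and 87.6 CPM against 41.2, 39.8 and 43.2 CPM (−1.03, adjusted p = 2e-14), and DGAT2, the other enzyme of that step, was lower by −0.55 (adjusted p = 7.08e-09). With the GC and length offsets 1 gene of this list was changed and higher and 0 were changed and lower. FASN, the fatty acid synthase, was at −0.27 (0.01 with the GC and length offsets), and SCD, the delta-9 desaturase, at 0.65, each past the adjusted p limit in the main model. Cholesterol synthesis and uptake had 11 of 25 tested genes higher and 14 lower by the adjusted p alone and a median of −0.20 (0.06 with the GC and length offsets), against 0.20 at 0 h. CYP51A1, a demethylase of the pathway, was higher by 0.68, while TM7SF2 and NPC1L1 were lower by −0.58 and −0.61. INSIG1, which retains the sterol sensor in the endoplasmic reticulum, was the 1 gene past both limits (4.0% of the list, against 7.77% of all). It was at 1.46 (adjusted p = 0.0379), with 10 to 61 counts in HepG2 and 71 to 170 in APOA4-KO, and it was not past both limits without APOA4-KO replicate 1.

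**Figure D3:**
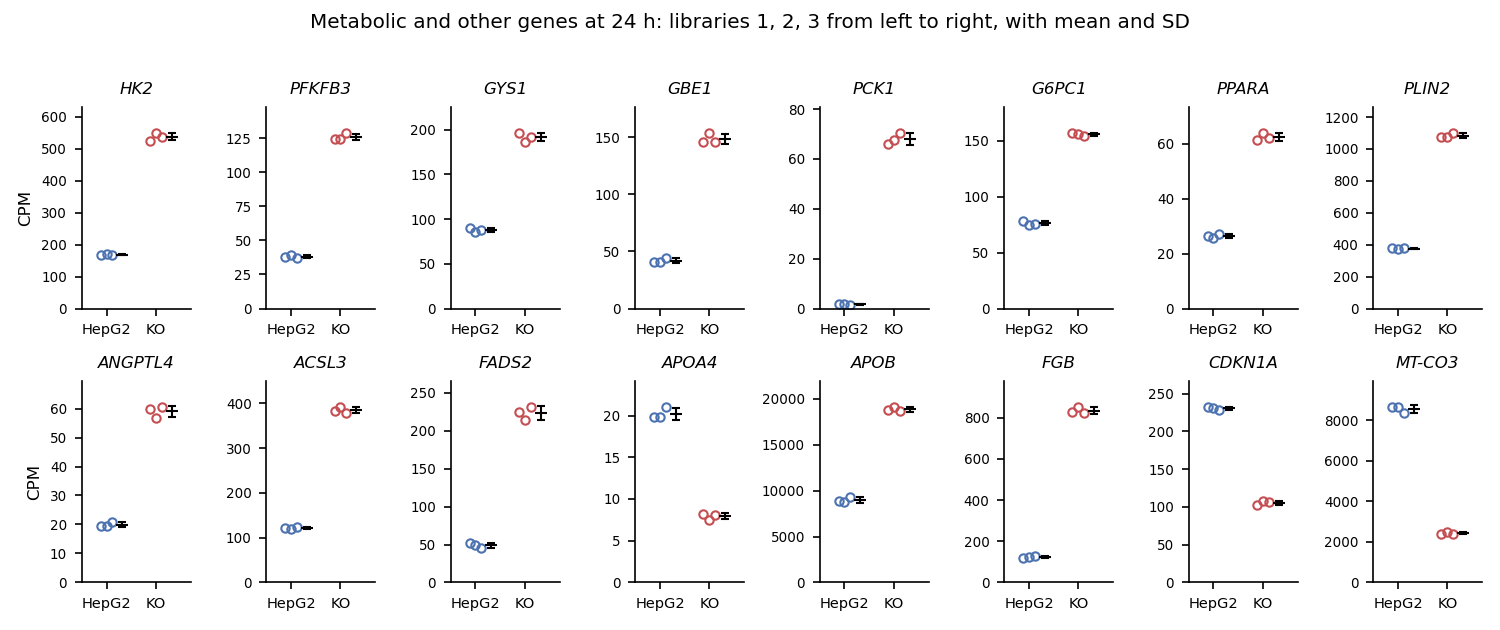
Levels of 16 genes at 24 h (y axis, CPM from 0) in HepG2 (blue) and APOA4-KO (red, labelled KO); open points are the 3 libraries in the order of their replicate numbers, and the bar beside them is the mean with the SD over n = 3. The lines are separated in each panel, from HK2 (168 to 171 CPM against 526 to 550) to the mitochondrial MT-CO3, where APOA4-KO is the lower line.

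Of 20 tested apolipoproteins and genes of lipoprotein assembly, 3 were changed and higher and 1, APOA4 itself, was changed and lower. APOB, the structural protein of very-low-density lipoproteins, was 8905, 8768 and 9363 CPM in HepG2 and 18814, 19134 and 18663 CPM in APOA4-KO (log2 fold change 1.07, standard error 0.02, adjusted p = 2.91e-17), and MTTP, which loads lipid onto it, was 53.1, 54.1 and 55.7 against 119, 126 and 113 CPM (1.14, adjusted p = 7.74e-14). APOL1, a component of high-density lipoproteins, was higher by 1.79 (adjusted p = 1.39e-15), by as much as at 0 h (difference 0.00, adjusted p = 0.992). APOC1 was lower by −0.65 (adjusted p = 3.33e-08) and APOM by −0.38 (adjusted p = 0.000392), and the median of the list was −0.02, or 0.46 with the GC and length offsets. With the offsets 4 were changed and higher and 0 lower, and APOB (0.50), MTTP (0.83) and APOA4 were under the fold limit.

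Secreted plasma proteins were more often higher than lower. Of 35 tested, 9 were changed and higher and 1 was changed and lower (28.6%, against 7.77% of all). By the adjusted p alone 23 were higher and 10 lower, against 23.6% and 24.6% of all tested genes. The median was 0.32 (0.24 at 0 h). The 3 chains of fibrinogen, the clot-forming protein, were all among the higher genes. FGB was 118, 126 and 129 CPM in HepG2 and 828, 852 and 823 CPM in APOA4-KO, FGA was 1152, 1181 and 1195 against 3592, 3716 and 3640.0 CPM, and FGG was 440.5, 453 and 464 against 1220.2, 1318 and 1284 CPM. Their log2 fold changes were 2.75, 1.63 and 1.49, with standard errors of 0.02 to 0.03 and adjusted p of at most 5.79e-19, and each was larger than at 0 h by 0.69 to 1.20. Transthyretin (TTR), a carrier of thyroid hormone, was higher by 1.28, coagulation factor F11 by 1.44 and the inter-alpha-trypsin inhibitor chain ITIH1 by 1.72. A1BG (1.12) and ITIH4 (2.02) were also past both limits, and other genes cover 50.9% and 74.4% of their exon bases. The vitamin D carrier GC was the changed gene that was lower (−1.74), with at most 2.34 CPM. AHSG, the fetuin that keeps calcium phosphate soluble, was lower by −0.48, and the anticoagulant PROC by −0.67.

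Of 21 tested transcription factors that define hepatocytes, 1 (4.76%) was changed, against 7.77% of all tested genes, and 9 were higher and 7 lower by the adjusted p alone. The changed gene, ONECUT1, also called HNF6, was 7.70, 9.43 and 8.13 CPM in HepG2 and 27.1, 28.1 and 25.6 CPM in APOA4-KO (log2 fold change 1.68, standard error 0.10, adjusted p = 3.82e-11). The orphan receptor NR2F1 was higher by 0.82 and HNF4A, the central factor of hepatocyte identity, by 0.35, and CEBPA was lower by −0.85 and GATA6 by −0.77. With the GC and length offsets 5 of the 21 were changed, all higher.

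In bile acid synthesis and transport the median was 0.37. Of 18 tested genes, 3 were changed and higher and 1 was changed and lower (22.2%, against 7.77% of all). Besides ABCB4, these were SLC51A, a subunit of the basolateral bile acid exporter (from 2.56, 3.94 and 3.95 CPM to 8.14, 8.81 and 8.69 CPM, log2 fold change 1.29, adjusted p = 1.12e-06), and CYP7A1, the rate-limiting enzyme of bile acid synthesis, at 0.75, 0.39 and 0.44 CPM against 1.88, 2.41 and 1.88 CPM (1.96, adjusted p = 1.13e-05). The partner subunit SLC51B was higher by 0.81, and in both subunits the difference between the times was past the limit (1.48 and 1.17, adjusted p = 3.49e-05 and 0.000443). The basolateral efflux pump ABCC3 was lower by −1.09 (adjusted p = 1.15e-12), or −0.90 with the GC and length offsets, under which 4 genes of the list were changed and higher and 0 lower. In drug metabolism, 2 of 33 tested genes were changed and higher and 3 were changed and lower (2 without APOA4-KO replicate 1). Together they were 15.2% of the list, against 7.77% of all, and the median was −0.23. ALDH1A1, which oxidizes retinal, was 305, 319.7 and 319 CPM against 95.5, 99.9 and 100.4 CPM (−1.67, adjusted p = 2.96e-18), the alcohol dehydrogenase ADH4 was higher by 1.01, and the glucuronosyltransferase UGT2B4 by 2.72 (adjusted p = 7.64e-09). CYP3A4 and CYP2E1, major drug-oxidizing enzymes of adult liver, had at most 34 and 16 counts in any of the 6 libraries.

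Targets of p53 were lower. Of 24 tested, 6 were changed (25.0%, against 7.77% of all), all lower. By the adjusted p alone 15 were lower and 3 were higher, and the median was −0.46, close to the −0.43 at 0 h. CDKN1A, the p21 inhibitor of cyclin-dependent kinases, was 232, 231 and 228 CPM in HepG2 and 103, 108 and 106 CPM in APOA4-KO (log2 fold change −1.13, standard error 0.03, adjusted p = 1.38e-16), and FDXR, a mitochondrial reductase, was 157, 161 and 158 against 71.0, 72.1 and 69.8 CPM (−1.16, adjusted p = 1.74e-16). TIGAR (−1.25), PLK3 (−1.14), PHLDA3 (−1.12) and SESN2 (−1.03) were the other changed genes. MDM2, which encodes the ubiquitin ligase of p53, was higher by 0.33 (adjusted p = 3.69e-07), and at −0.28 with the GC and length offsets its sign was the opposite. With these offsets 1 of the 6 genes was past the fold limit, and the list's median was −0.45.

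In the other stress lists the share of changed genes was 4.17% to 11.1%, on either side of the 7.77% of all tested genes. Of 27 tested ATF4 targets, 1 was changed and higher, 2 were changed and lower and 17 were lower by the adjusted p alone, with a median of −0.42. Asparagine synthetase (ASNS) was 57.7, 61.2 and 58.1 CPM in HepG2 and 30.7, 30.6 and 27.4 CPM in APOA4-KO, and NUPR1, a stress-induced chromatin protein, was lower by −1.55 (adjusted p = 2.38e-13). In the unfolded protein response, 1 of 23 tested genes was changed, the chaperone partner SDF2L1 (−1.34, adjusted p = 1.22e-10, or −0.66 and under the fold limit with the GC and length offsets), and HYOU1 was lower by −0.80, while HSP90B1 was higher by 0.47. Of 24 NRF2 targets and glutathione genes, 1 was changed and lower, and 0 were without APOA4-KO replicate 1, and NQO1 and AKR1C3 were lower by −0.78 and −0.86. Of 17 tested metallothionein and iron genes, STEAP3, an endosomal iron reductase, was changed and lower (−1.15), and the transferrin receptor TFRC was higher by 0.66 and the iron sensor IREB2 by 0.95. With the offsets STEAP3 was at −0.85, and 2 genes of that list were changed and higher and 0 lower.

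Cell cycle genes are given by phase. In S phase, 0 of 26 tested genes were changed, 3 were higher and 14 lower by the adjusted p alone, and the median was −0.19, with CCNE1 at −0.72 and thymidine kinase TK1 at −0.70. In mitosis, 2 of 26 (7.69%, against 7.77% of all tested genes) were changed and higher, CENPF (1.17) and CENPE (1.08), which act at kinetochores, 16 were higher and 6 lower by the adjusted p alone, and the median was 0.39. The proliferation marker MKI67 was 78.2, 75.1 and 71.0 CPM in HepG2 and 141, 137 and 133 CPM in APOA4-KO (log2 fold change 0.87, adjusted p = 2.42e-12), and CDC20 and PTTG1, which act at the exit from mitosis, were at −0.44 each (0.05 and −0.27 with the GC and length offsets). With those offsets 0 of the mitotic genes were changed.

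All 13 protein-coding genes of the mitochondrial genome were lower in APOA4-KO by the adjusted p, and 6 (46.2%, against 7.77% of all) were changed. The median log2 fold change was −0.98, against 0.10 at 0 h, and the difference between the times was past the limit in all 13. MT-CO3, a subunit of cytochrome c oxidase, was 8670.3, 8658 and 8349 CPM in HepG2 and 2386, 2476 and 2415 CPM in APOA4-KO (log2 fold change −1.82, standard error 0.03, adjusted p = 2.96e-18). The other changed genes were MT-ATP8 (−1.57), MT-ND1 (−1.52), MT-ND2 (−1.51), MT-CYB (−1.42) and MT-ATP6 (−1.40), while MT-CO1, the catalytic oxidase subunit, was at −0.65 and MT-ND4 and MT-ND6 were at −0.50. The 13 genes thus shared a sign and differed in size, and no library of a line reached the other line in MT-CO3. With the GC and length offsets 6 of the 13 were changed and lower, and the median was −0.98. Of 45 tested nuclear genes of the respiratory chain, 0 were changed, 32 were lower and 3 higher by the adjusted p alone, and the median was −0.24 (−0.17 at 0 h). UQCRQ of complex III was at −0.77 and ATP5MC1 of ATP synthase at −0.67, while NDUFS1 of complex I was at 0.39 (−0.19 with the GC and length offsets) and SDHA of complex II at 0.31.

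Cytosolic ribosomal proteins were lower as a group by a small amount. Of 78 tested, 75 were lower and 0 higher by the adjusted p alone, 0 were past the fold limit, and the median was −0.45, against −0.08 at 0 h. RPL9 was 246, 247 and 262 CPM in HepG2 and 134, 155 and 153 CPM in APOA4-KO (log2 fold change −0.77, adjusted p = 1.24e-10), and RPS3A was at −0.72. RPL22 was at 0.01 (adjusted p = 0.905), and RPL3, at −0.07 (adjusted p = 0.00766), had the opposite sign with 3 other settings. With the GC and length offsets, 57 were lower and 9 higher by the adjusted p alone, and the median was −0.32.

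Some matrix genes depended on APOA4-KO replicate 1. Of 36 tested laminins, collagens, integrins and their modifying enzymes, 6 were changed and higher and 3 were changed and lower (25.0%, against 7.77% of all). The median was 0.39. Without replicate 1 these were 5, 3 and 0.00. COL4A1 of the basement membrane was 0.87, 0.81 and 1.40 CPM in HepG2 and 12.5, 1.76 and 2.32 CPM in APOA4-KO, so its log2 fold change of 2.43 (adjusted p = 0.00157) came to 1.00 without replicate 1, and COL4A2 went from 1.28 to 0.05. The collagen hydroxylase PLOD2 and the integrin ITGA1 did not depend on it: PLOD2 was 237, 240 and 277 CPM against 527, 566 and 525 CPM (1.10, adjusted p = 2.19e-12), and ITGA1 was higher by 1.12 (adjusted p = 6.49e-13). LAMB2 was lower by −0.71, beside the decrease of LAMC3 given above. Of 33 tested interferon-stimulated genes, 3 were changed and higher and 1 was changed and lower (12.1%, against 7.77% of all). The higher ones also depended on replicate 1. The 3 that were changed and higher, IFI44L, IFI44 and IFIT3, had 7.27, 6.31 and 11.5 CPM in replicate 1 and at most 2.81 CPM in the other APOA4-KO libraries, and without it 0 genes of the list were changed and higher and 2 were changed and lower. The immunoproteasome subunit PSMB9 was lower with and without it (−1.004 and −1.06).

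Growth factor genes were higher in part. In the IGF and insulin pathway, 5 of 19 tested genes (26.3%, against 7.77% of all) were changed, all higher. The median was 0.71 (0.23 at 0 h). IGFBP3, the main IGF carrier of plasma, was 14.5, 16.9 and 14.5 CPM in HepG2 and 43.1, 45.9 and 43.8 CPM in APOA4-KO (log2 fold change 1.53, adjusted p = 8.42e-13). IGF2, the fetal growth factor of liver, was 3639, 3627 and 3659.6 against 8594, 8309 and 8924 CPM (1.24), with other genes over 75.0% of its exon bases. The adaptor GRB10 (1.34) and the transcription factor FOXO3 (1.12) were also higher, as was IGFBP5 (3.56, or 2.31 without replicate 1, from at most 0.52 CPM in HepG2). IGFBP4 was lower by −0.90. In the Wnt list 0 of 17 tested genes were changed, with the inhibitor DKK1 at −0.94 and glutamine synthetase GLUL at 0.55. Of 28 AP-1 and immediate early genes, FOS was the 1 changed gene (3.57%, against 7.77% of all). It was 1.49, 1.19 and 2.37 CPM in HepG2 and 8.03, 8.48 and 7.66 CPM in APOA4-KO (2.26, adjusted p = 3.71e-07). In the IL-6 and acute phase list, 0 of 21 were changed and 10 were higher and 3 lower by the adjusted p alone, with a median of 0.65, the antiprotease SERPINA3 at 0.87 and the acid glycoproteins ORM1 and ORM2 at −0.44 and −0.49. With the GC and length offsets 4 of this list and 4 of the AP-1 list were changed, all higher.

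**Figure D4:**
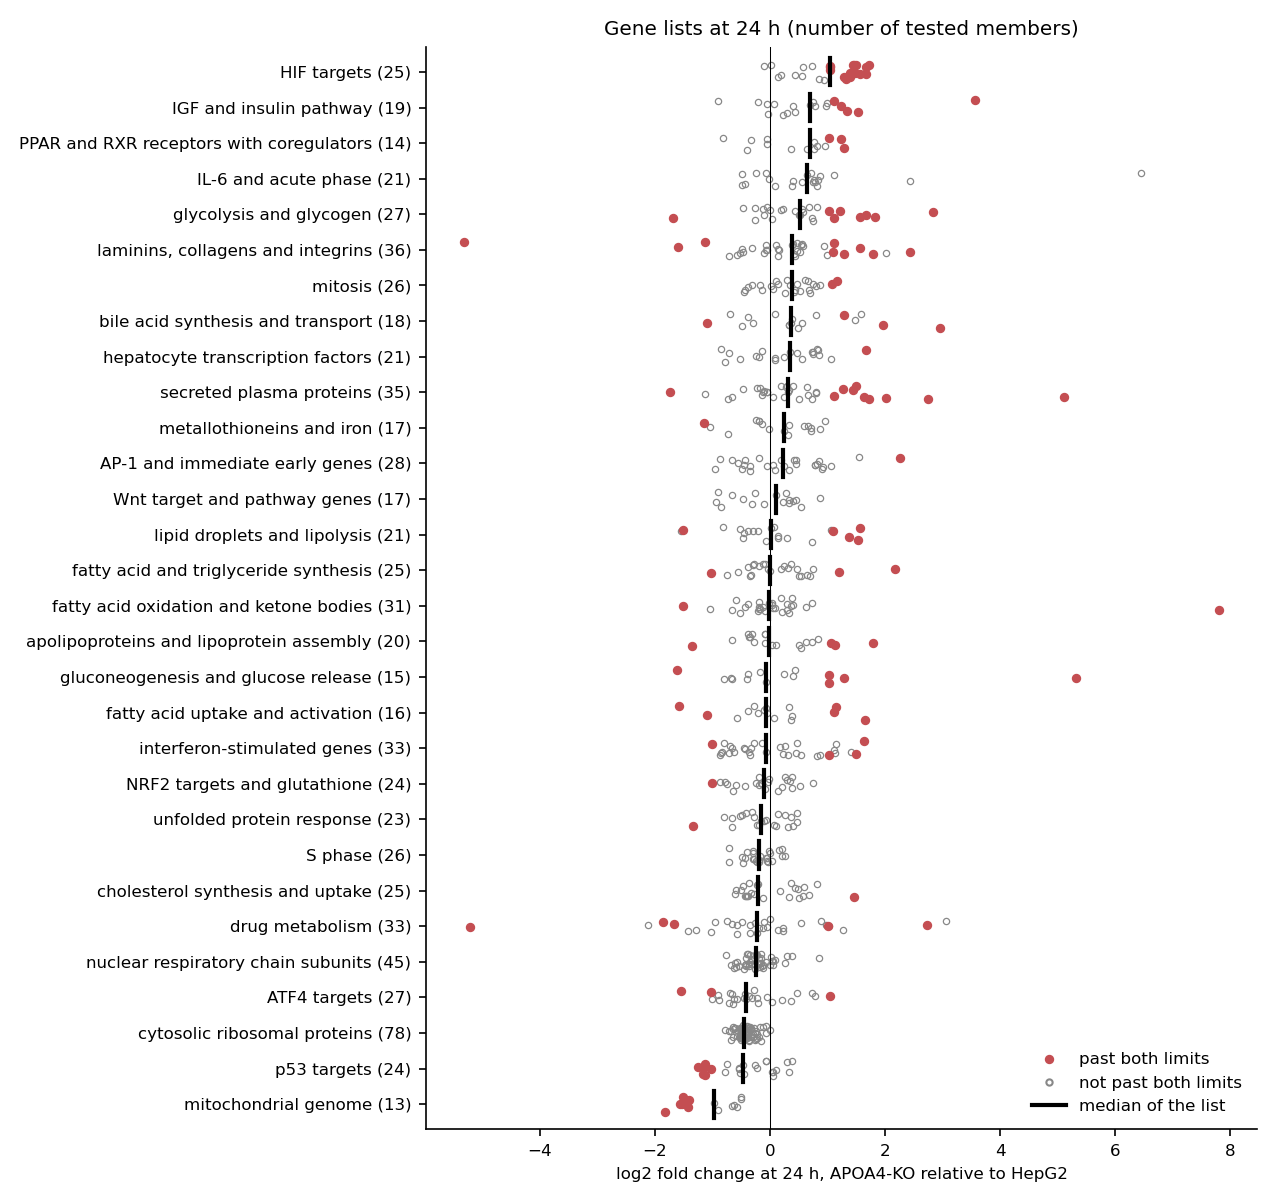
Log2 fold change at 24 h (x axis, APOA4-KO relative to HepG2) of every tested member of 30 gene lists, ordered by the list's median, which is the black bar; red points are past both limits. HIF targets stand highest, with a median of 1.05, and the genes of the mitochondrial genome lowest, with −0.98. LBP, at 6.45 in the IL-6 list and not past the limit, has few counts.

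The line difference followed the GC content and the length of transcripts, more so at 24 h than at the other times. Genes whose mean count in the higher line was 500 or more, and whose transcript sequence was known, were divided into 5 bins of 2011 to 2013 genes. The bin with the lowest GC content (median 38.7%) had a median log2 fold change of 0.43 and the bin with the highest (61.7%) of −0.47. At 0 h the same bins were at 0.10 and −0.16, and at 48 h at 0.10 and −0.13. The bin of the shortest transcripts (median 1617 bases) was at −0.34 and the longest (7719 bases) at 0.40. The trend was in each library: the deviation of the bin of highest GC content from its mean over all 18 libraries was −0.34 to −0.41 in the 3 APOA4-KO libraries and 0.08 to 0.11 in the 3 HepG2 libraries. With offsets that remove the trend, which were added after the data had been seen, 1145 genes were changed, 777 higher and 368 lower, and 820 of the 1535 were among them. The part of this trend in the results was not tested. Of the 125 changed genes named here, 34 were not past both limits with the offsets, and 12 named genes that were not changed in the main model were past them. The 34 kept their sign, and they included ANKRD37, KDM3A, PDK1 and VEGFA of the HIF targets, PPARA, PPARGC1A and NCOA1, the lipid genes ACSL4, SLC27A4, ELOVL6, DGAT1 and LIPG, 5 targets of p53, and ITGA1, PLOD2 and FOXO3. The 12 included CA9 (1.12), NR2F1 (1.20), SERPINA3 (1.155), AKR1C3 (−1.05), DKK1 (−1.05), RPL9 (−1.02) and SLC51B (1.05).

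**Figure D5:**
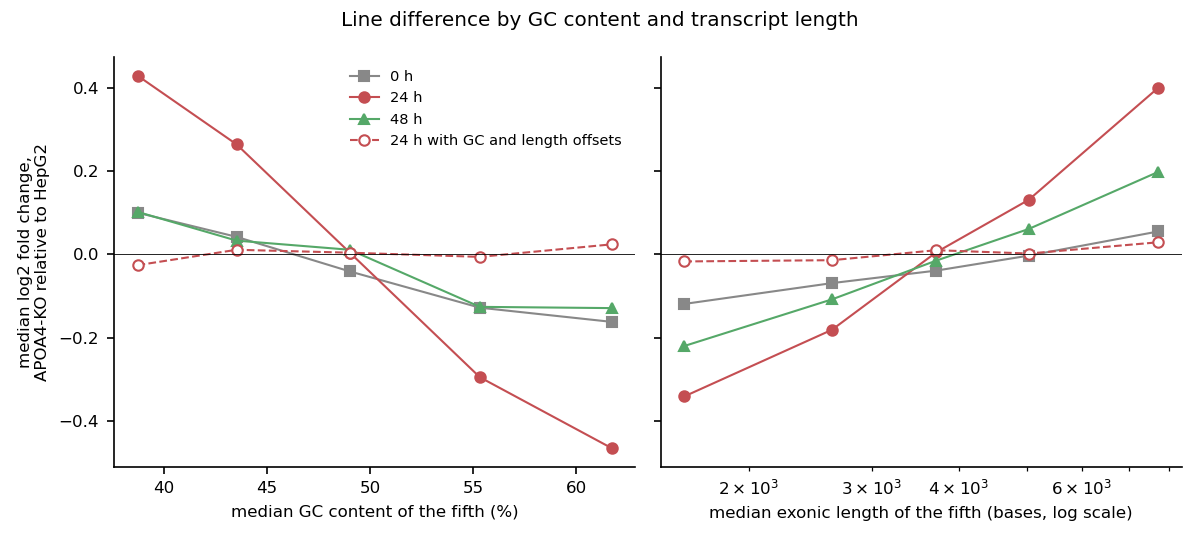
Median log2 fold change of APOA4-KO relative to HepG2 in 5 bins of genes by GC content (left) and by transcript length (right, log scale), at 0 h (grey), 24 h (red) and 48 h (green). The solid red lines run from 0.43 to −0.47 with rising GC content and from −0.34 to 0.40 with rising length, and the dashed line is 24 h after offsets that were built to remove the trend.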

How the data were processed

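Poly(A) RNA of HepG2 and APOA4-KO cells was sequenced at 0, 24 and 48 h of hypoxia, with 3 libraries per line and time. Per the methods of the study, the authors used fastp for trimming, HISAT2 for alignment to GRCh38.p13 and featureCounts for counts per gene, while the submitters' processing notes list StringTie, so the counting tool is not settled, and whether the counting used strand is not given in the sources used here. The authors deposited a table of whole-number counts per gene, with no normalization between libraries, and a table of FPKM values (counts scaled to gene length and library), which served here only as an alternative.

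Counts were scaled by TMM, filtered with filterByExpr (19743 of 61806 genes kept) and fitted with edgeR 4.0.16 (R 4.3.3), using its quasi-likelihood test with Benjamini-Hochberg adjustment over all tested genes, 1 mean per line and time and all 18 libraries. The interaction contrast gave the test of the difference between 24 h and 0 h. CPM values use TMM-scaled library sizes. The procedure was tested on simulated data. Replicate numbers do not pair the libraries, so no block was used. The 12 largest changes in each direction were named among genes past both limits (an absolute log2 fold change of 1 and an adjusted p of 0.05) whose mean count was 500 or more in the higher line and whose count was 10 or more in each library, with no overlap between the lines, and genes at the floor of 3 counts in 1 line with a mean of 100 counts or more in the other were named apart. Alternatives were other scalings, no filter, the 24 h libraries alone, DESeq2 1.42.0, counts divided by 4, limma 3.58.1 on log2(FPKM + 1), the replicate block and each library left out. Offsets for GC content and length of the longest annotated transcript were added after the data were seen. The members and gene lists were chosen with earlier results of these data known. Some members of the lists were counted but are not reported here by name. Of the gene IDs, 42054 had a symbol and 58254 were in the older GENCODE annotation of the same build used for coordinates, length and overlap. Total counts of 76481820 to 91476613 per 24 h library set the counting error, and no interval here covers more than the spread between libraries.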

Additional observations from a re-analysis of the deposited data

Results flagged for a closer look

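For 18 of the 25 genes that are APOA4 and the 12 largest changes in each direction, the line difference at 24 h differed from that at 0 h by the interaction test of edgeR (adjusted p under 0.05), which is what brought them here. The values below are the log2 fold change at 24 h less that at 0 h.

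APOA4 had a difference between the times of −1.12 (adjusted p = 3.39e-07), from −0.23 at 0 h to −1.35 at 24 h. Among the genes that were higher in APOA4-KO, the line difference had grown by 2.57 for PCK1 (adjusted p = 1.77e-08), 1.53 for SLC6A14 (1.9e-06), 1.25 for RELN (1.11e-12), 1.14 for SCN1A (0.000457) and 1.05 for ATP10A (0.0344). Smaller growth was found for DPP4, with 0.80 (adjusted p = 2.28e-06), ABCB4, with 0.64 (0.00261), and AFP, with 0.12 (0.023), and AFP therefore differed by nearly as much before hypoxia.

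Among the genes that were lower in APOA4-KO, the difference between the times was −2.09 for MDFI (adjusted p = 7.11e-07), −1.19 for ATOH8 (1.91e-08), −1.15 for LAMC3 (6.38e-07) and −0.95 for ALPL (0.0293). It was −0.59 for SLC16A9 (adjusted p = 0.0106), −0.58 for GLB1L2 (0.0027), −0.37 for COMP (0.0439), −0.34 for MYL9 (0.000457) and −0.33 for PLA2G2A (0.000284). In all 18 genes the difference had the same sign at both times and was larger at 24 h. The genes were chosen by their difference at 24 h, and the 0 h libraries of APOA4-KO carried more counts of connective tissue genes than APOA4-KO replicates 2 and 3 at 24 h, whose part in these values was not tested.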

How the results depend on the processing

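The number of changed genes lay between 1419 and 1659 with the other scalings, no filter, the 24 h libraries alone, DESeq2 or counts divided by 4 (1535 in the main model), and between 1439 and 1583 with 1 library left out, of which 799 to 956 were higher and 600 to 643 lower. Limma on log2(FPKM + 1), which understates changes of low genes, called 326 genes, 220 higher and 106 lower, and 321 of them were among the 1535. The GC and length offsets, chosen after seeing the data, gave 1145 genes, 777 higher and 368 lower, a larger share of higher genes than in the main model. The count of genes whose line difference differed between 24 h and 0 h was 6364, 5905 to 6165 with 1 library left out and 4788 with the offsets. APOA4 was −1.28 to −1.37 on the counts otherwise, −1.31 to −1.36 with 1 library left out, −1.14 with FPKM and −0.77 (adjusted p = 2.05e-07) with the offsets, under the fold limit.

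With the replicate number as a block, 1484 genes were changed, 847 higher and 637 lower, 1441 of them among the 1535, and 6242 differed between the times. The deviations of same-numbered 24 h libraries correlated by −0.0168, −0.0281 and −0.0539, and not every library correlated best with its own number, so these share only a number.

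Of 250 genes examined one by one, 16 were counted as changing sign with the offsets and at most 2 in any other setting. That count leaves out TPI1, which was −0.051 in the main model, 0.014 with library size alone and 0.015 with FPKM, past the adjusted p limit in none of them. With library size alone IGF2R was at 0.041 and RPL3 at 0.001, and with FPKM at 0.041 and 0.002. With the offsets the sign turned for ALDOA (0.21), APOA1 (0.262), CDC20 (0.047), FASN (0.008), KRT19 (0.386), MDM2 (−0.276), NDUFS1 (−0.194), PDGFRB (0.048), PFKL (0.1), PKM (0.11), PLIN3 (0.077), PNPLA2 (0.261), RPL3 (0.323), RXRB (0.106), TM7SF2 (0.003) and TPI1 (0.418). The offsets were built to remove the trend with GC content and length, and the part of that trend in these changes was not tested. With 1 library left out IFI44L lay between −0.337 and 2.118 and IFIT3 between −0.059 and 1.384, both lowest without APOA4-KO replicate 1. The cause of the other changes was not tested.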

Other observations

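Counts at transfer RNA genes of the mitochondrial genome were lower in APOA4-KO at 24 h. Of 22 tested, 12 (54.5%, against 7.77% of all) were past both limits, all lower, and 10 were without APOA4-KO replicate 1. The median log2 fold change was −1.01. These were poly(A) libraries, and which RNA the reads at these genes came from was not examined, so they are no observation apart from the protein-coding genes of that genome. The protein-coding genes of the mitochondrial genome had a median of 0.10 at 0 h and −0.95 at 48 h, and cytosolic ribosomal proteins, at −0.45 at 24 h, had −0.08 and 0.07 at those times. S phase genes had a median of −0.19 at 24 h and −1.31 at 48 h, and AP-1 and immediate early genes of 0.22 and 1.95. All 3 times share the same lines, and only the difference between 24 h and 0 h was tested.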
